A study of Mus musculus with 6 samples.

Results

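Glutamate receptors and their auxiliary subunits are the genes described here, in the auditory cortex of C57 mice with and without overexpression of the Wnt ligand gene Wnt3. The 34 members were taken by gene symbol from the deposited tables of 50559 genes: 4 AMPA, 7 NMDA, 5 kainate and 1 delta receptor subunits, 6 metabotropic receptors and 11 auxiliary subunits. All 34 were found, and all 34 had enough counts to be among the 22360 genes tested. RNA was sequenced in 6 libraries, 3 labelled WNT3 control and 3 labelled WNT3 Overexpressing. The labels give neither age nor the means of overexpression, nor what the controls received. Whether replicates come from separate animals is not stated either, and the p-values therefore describe the spread between these samples alone, which may be technical. Auditory cortex is the labelled tissue, although the protocol for RNA extraction speaks of striatum.

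Glutamate is the main excitatory transmitter of the cortex. AMPA receptors carry the fast synaptic current, NMDA receptors admit calcium when the cell is already depolarised, kainate receptors tune release and excitability, and metabotropic receptors act through G proteins. Auxiliary subunits do not bind glutamate to open a channel: TARPs (the Cacng genes) and cornichons escort AMPA receptors to the surface and slow their closing, Neto proteins do the same for kainate receptors, and Shisa9 (CKAMP44) modifies AMPA receptor desensitisation.

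Total counts were 42614588 to 71803617 per library. Wnt3 was at 2.70, 1.91 and 1.74 CPM (counts scaled to library size with TMM factors, used for all CPM below) in controls 1 to 3 and at 98.8, 7.45 and 8.71 CPM in overexpression libraries 1 to 3, so every overexpression library lay above every control. Control 2 stood apart from the other 5 libraries. Relative transcript length was taken here as deposited counts over deposited TPM, averaged over the libraries. Across the 22360 tested genes, its Spearman correlation with the deviation from the gene mean was -0.47 in control 2 and 0.17 to 0.30 in the others. The deviations of a gene sum to 0 over the 6 libraries. A negative trend in control 2 thus pushes the others upward, and their values are not independent of it. Control 2 was the lowest library in 33.9% of tested genes and the highest in 35.8%. Fold changes below are therefore given with and without it. Marker genes of excitatory neurons (11 of 11 detected) summed to 5747 to 6008 CPM in controls, compared with 5481 to 5627 CPM in overexpression, groups that did not overlap. Markers of cortical layers summed to 800 to 1011 CPM in controls and 857 to 1074 CPM in overexpression, with overlap. Those of striatal projection neurons summed to 431 to 600 and 408 to 466 CPM, also with overlap. Taken gene by gene, 12 of the 14 striatal markers tested had log2 fold changes below 0, or 14 of 15 without control 2 (background 50.7% and 46.8% of tested genes). Their medians in these fits were -0.35 and -0.57. In edgeR 1 of them had an unadjusted p under 0.05 (background 4.65% of tested genes), or 2 without control 2 (background 5.87%). None had an adjusted p under 0.05 in edgeR. Markers of GABAergic interneurons summed to 1073 to 1465 and 986 to 1204 CPM. In edgeR 2 of the 11 excitatory markers and 3 of the 17 interneuron markers had an unadjusted p under 0.05, all lower (background 4.65%, and 2.8% lower). Without control 2 these counts were 0 and 1 (background 5.87%). Astrocyte markers summed to 4334 to 7718 CPM in controls, or 6986 and 7718 CPM in controls 1 and 3, and to 6226 to 6754 CPM in overexpression. Endothelial markers summed to 252 to 293 CPM in controls and to 337 to 539 CPM in overexpression, groups that did not overlap. Of the 10 endothelial markers 8 were higher and 2 lower, with and without control 2 (background 50.7% and 46.8% of tested genes lower). In edgeR 4 of the 10 had an unadjusted p under 0.05 (background 4.65%), or 5 without control 2 (background 5.87%), all higher. None had an adjusted p under 0.05 in edgeR. The median log2 fold change of the 10 was 0.56, or 0.54 without control 2. Meningeal fibroblast markers summed to 170 to 278 CPM in controls and 142 to 507 CPM in overexpression, with overlap and a median of 0.60 (0.46 without control 2). Of 11 oligodendrocyte markers 10 were lower, or 7 without control 2 (background 50.7% and 46.8% of tested genes). Their sums were 4737 to 7057 CPM in controls and 3230 to 6563 CPM in overexpression. The sums for oligodendrocyte precursors, microglia, hippocampus, thalamus and choroid plexus overlapped between the groups. DESeq2 on all libraries called 1 gene each among cortical layer, GABAergic interneuron, oligodendrocyte and endothelial markers (adjusted p under 0.05, background 0.25%). It called 0 in the other marker lists. No marker found in the tables was at 0 in all libraries. In bulk tissue, fewer cells of a type and less RNA per cell cannot be told apart.

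No glutamate receptor or auxiliary subunit gene passed the threshold of 0.05 on the adjusted p between overexpression and control. By edgeR's quasi-likelihood method, adjusted over all genes after Benjamini and Hochberg, 0 of 34 members passed (background 0% of tested genes), and the smallest adjusted p among them was 0.82. Wnt3 itself did not pass in that fit. Its log2 fold change was 4.18 ± 1.02 (SE), with unadjusted p = 0.0033 and adjusted p = 0.82 in edgeR. The absence of calls among the members is therefore no evidence that they were unchanged. DESeq2 called 0 of 34 as well (background 0.25%), as did limma voom. An unadjusted p under 0.05 was reached by 2 members in edgeR, Cnih2 and Grm2, which were both lower (background 4.65% of tested genes in either direction and 2.8% lower). Of the 34, 17 had a log2 fold change above 0 and 17 below (50.7% of all tested genes were below 0). The median was 0.0049, beside -0.0069 over all tested genes.

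Leaving out control 2 shifted the balance within the set. With the remaining 5 libraries, 27 members were lower and 7 higher, where 46.8% of all 22962 tested genes were lower. The median log2 fold change of the members was then -0.11, beside 0.02 for all tested genes. The shift was uneven over the libraries. Relative to controls 1 and 3, the median log2 deviation of the members was -0.09, -0.28 and -0.06 in overexpression libraries 1 to 3. The pooled SD of such library medians within groups, control 2 included, was 0.15. Overexpression library 2 was the lowest of the 6 libraries for 9 members. The members share these libraries and are not independent of each other. With a trend on transcript length removed from all 6 libraries, 24 members were lower and 10 higher (49.1% of all genes lower), with a median of -0.10. The excitatory marker sums given above were also lower in each overexpression library, although 5 of the 11 markers were lower and 6 higher without control 2. The endothelial sums were higher in each overexpression library. The part of either in this balance was not tested. By edgeR 0 members passed without control 2 (background 0%), 2 had an unadjusted p under 0.05 (Grm2 and Grm3, background 5.87%), and DESeq2 called 0 (background 0.571%). In the authors' deposited TPM (values corrected for transcript length and scaled to the same total), tested as log2(TPM + 1) with limma-trend over all 6 libraries, 23 members were higher and 11 lower, a share near that of all genes (65% of 35107 tested there were higher). That fit differs from edgeR in unit, test and genes kept. For 10 of the 34 members the sign differed between the edgeR fits with and without control 2.

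**Figure D1:**
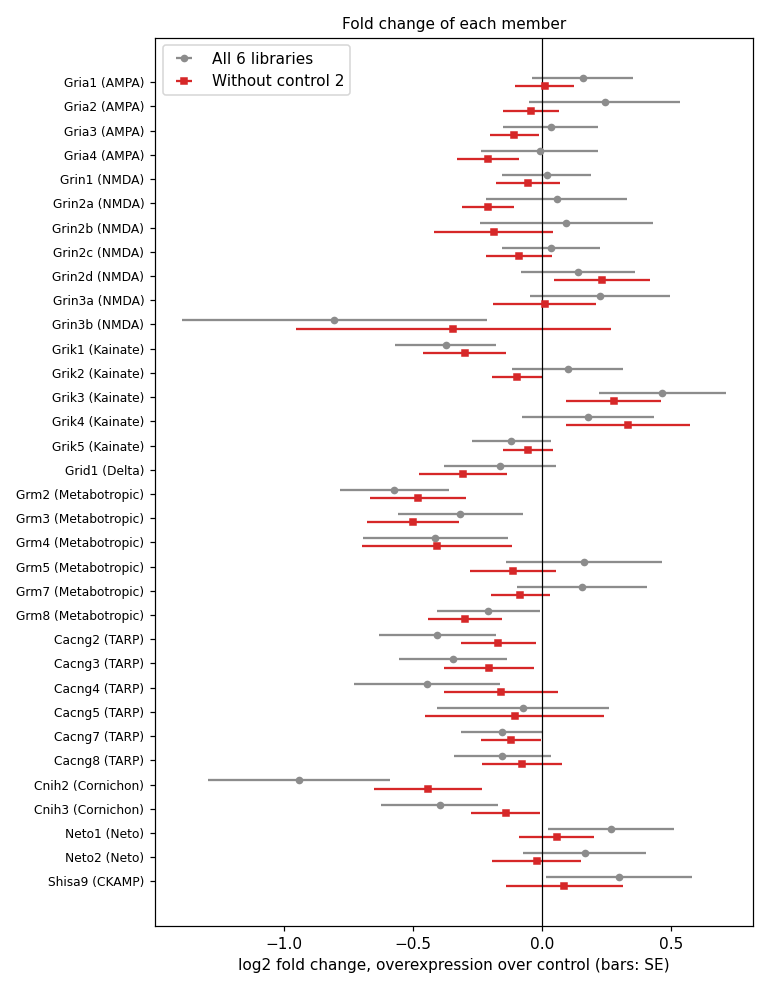
log2 fold change of each of the 34 members (overexpression over control, x axis) from edgeR with all 6 libraries (grey circles) and without control 2 (red squares), with bars of 1 SE. TARPs and cornichons lie below 0 in both fits, whereas 12 of the 17 ionotropic subunits lie above 0 with all libraries and 5 of them without control 2.

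The members in control 2 differed by transcript length. There the CPM of the members relative to the mean of controls 1 and 3 ran from 0.46 for Gria2 to 2.24 for Cnih2. Over the 34 members, this ratio and the length of the longest transcript in GENCODE M21 had a Spearman correlation of -0.68, given as a description of 1 library (n = 34 genes). Grin2b (24.1 kb), Grin2a (14.6 kb) and Gria2 (10.4 kb), the members with the longest transcripts, were at 0.47, 0.49 and 0.46 times the other controls. Cnih2 (1.34 kb), the member with the shortest transcript, was at 2.24 times. Control 2 was the lowest of the 6 libraries for 15 members (background 33.9% of tested genes) and the highest for 11 (background 35.8%). It thus set an end of the range for 26 of 34, as it did for most tested genes.

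**Figure D2:**
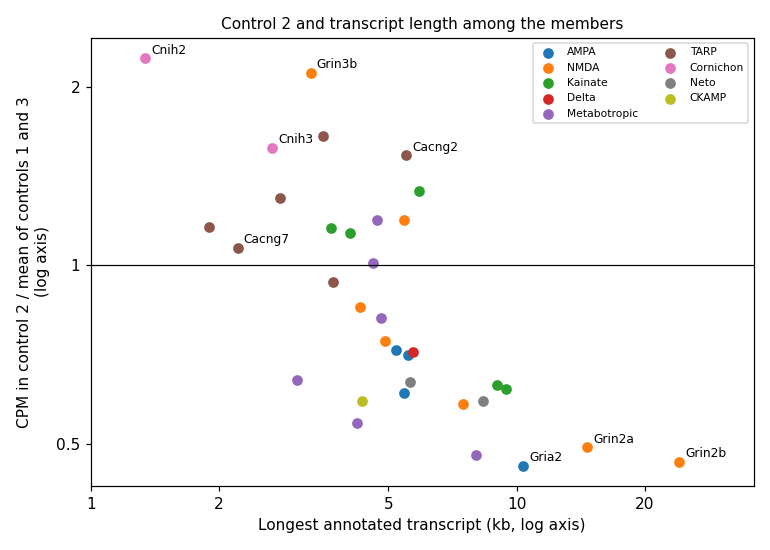
CPM in control 2 divided by the mean of controls 1 and 3 (y axis, log scale) against the longest annotated transcript in kb (x axis, log scale) for the 34 members, coloured by class. Members with long transcripts, such as Grin2b at 0.47, lie below 1 and the cornichons, at 1.58 and 2.24, lie above it.

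**Figure D3:**
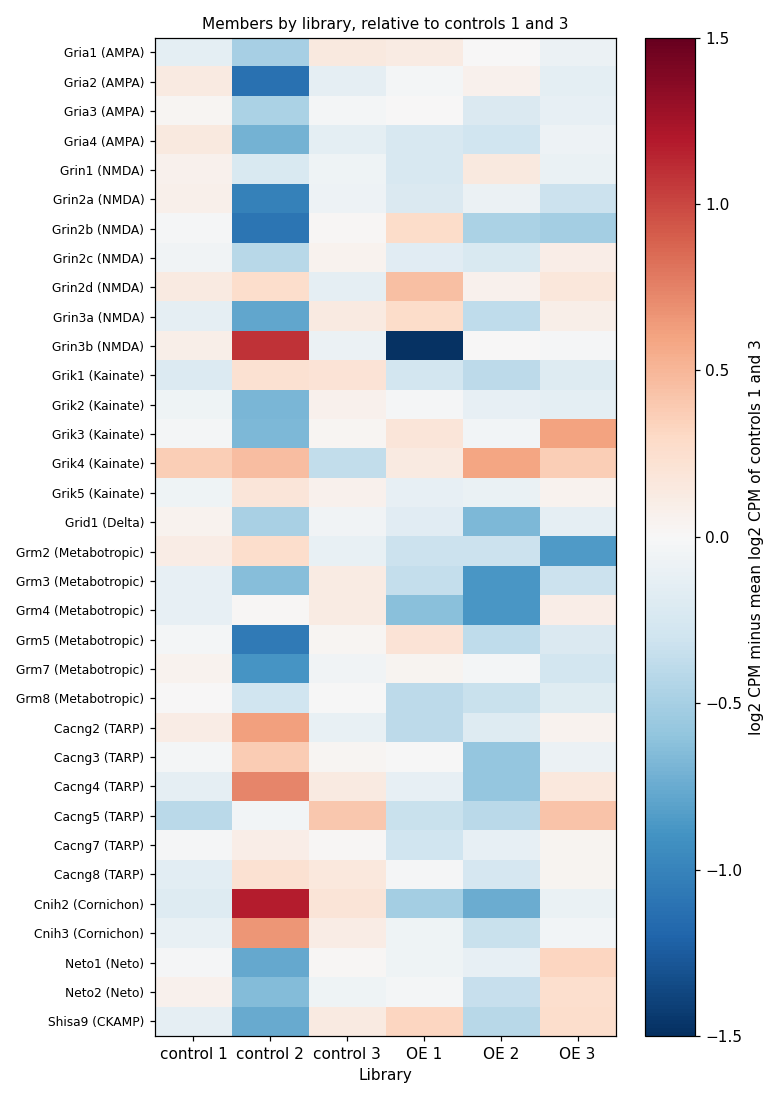
log2 CPM of each member (rows) in each library (columns) minus the mean log2 CPM of controls 1 and 3, with blue for lower and red for higher. In the column of control 2, Gria2, Grin2a, Grin2b and Grm5 are low and Cnih2, Cnih3 and Grin3b are high, and Grin3b is also low in overexpression library 1.

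AMPA receptor subunits had the highest summed TPM of the receptor classes, and without control 2 their log2 fold changes lay between -0.21 and 0.01. Gria2, whose edited subunit makes the receptor impermeable to calcium, was at 1274, 534 and 1049 CPM in controls 1 to 3 and at 1133, 1206 and 1043 CPM in overexpression libraries 1 to 3. Its overexpression values lay within the span of controls 1 and 3 apart from overexpression library 3, and control 2 was at less than any other library. The log2 fold change of Gria2 was 0.24 ± 0.29 (SE) with all libraries and -0.04 ± 0.11 (SE) without control 2, where its 95% interval ran from -0.30 to 0.21. Gria1, the subunit most tied to activity-dependent insertion, was at 295, 232 and 362 CPM in controls, compared with 357, 327 and 308 CPM in overexpression, groups that overlapped. Its log2 fold change was 0.16 ± 0.20 (SE), or 0.01 ± 0.12 (SE) without control 2. Gria3 and Gria4, which form further heteromers with Gria2, stood at -0.11 ± 0.09 and -0.21 ± 0.12 (log2 fold change ± SE) without control 2 and at 0.03 ± 0.18 and -0.01 ± 0.23 with it.

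The shares of the AMPA subunits overlapped between the groups. In the deposited TPM, Gria2 made up 45.0%, 37.8% and 40.3% of the summed Gria1 to Gria4 level in the controls and 42.0%, 47.1% and 42.1% in overexpression (exact two-sided permutation p = 0.4, where 3 against 3 libraries cannot give less than 0.1). Gria1 made up 17.1% to 22.3% in controls and 19.9% to 21.5% in overexpression, and Gria4, prominent in interneurons, 12.05% to 13.5% and 10.5% to 13.1%. Control 2 stood apart in the summed level, which was low there. That sum was 721, 303 and 664 TPM in controls 1 to 3 and 726, 685 and 634 TPM in overexpression.

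NMDA receptor subunits showed the same pattern, with long transcripts low in control 2. Grin1, the obligatory subunit, was at 311, 253 and 284 CPM in controls, compared with 252, 329 and 278 CPM in overexpression, with overlap and a log2 fold change of 0.02 ± 0.17 (SE), or -0.05 ± 0.12 (SE) without control 2. Grin2a, the subunit that comes to predominate in the mature cortex, was at 317, 149 and 287 CPM in controls, compared with 259, 284 and 241 CPM in overexpression. Without control 2, every overexpression library was below both controls for Grin2a, with a log2 fold change of -0.21 ± 0.10 (SE) and an edgeR adjusted p of 0.88, where all 6 libraries gave 0.06 ± 0.27 (SE). Grin2b, the subunit that predominates early in life, was at 632, 299 and 649 CPM in controls, compared with 776, 462 and 450 CPM in overexpression. Overexpression library 1, the library with the highest Wnt3, was the highest for Grin2b, and the other overexpression libraries lay between control 2 and the other controls. The log2 fold change of Grin2b was 0.09 ± 0.34 (SE), or -0.19 ± 0.23 (SE) without control 2.

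The balance of the GluN2 subunits did not separate the groups. Grin2b made up 56.5%, 57.4% and 59.6% of the summed TPM of Grin2a and Grin2b in controls and 66.05%, 51.4% and 54.7% in overexpression (exact two-sided permutation p = 1). The controls, control 2 included, were close to each other in this ratio of long transcripts, and the overexpression libraries lay on both sides of them. Grin2c, found in astrocytes and cerebellar granule cells, was at 41.1 to 57.2 CPM in controls, compared with 47.2 to 59.1 CPM in overexpression. Grin2d, found in interneurons, was at 7.22 to 9.50 and 8.27 to 10.8 CPM. Grin3a, a subunit that lowers calcium entry, was at 17.9 to 33.6 and 23.6 to 36.9 CPM, and Grin3b was near the detection limit at 0.38 to 0.84 and 0.14 to 0.40 CPM, with 8 to 46 counts per library. Grin3b shares exon bases with Tmem259, so its counts may hold reads of that gene.

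**Figure D4:**
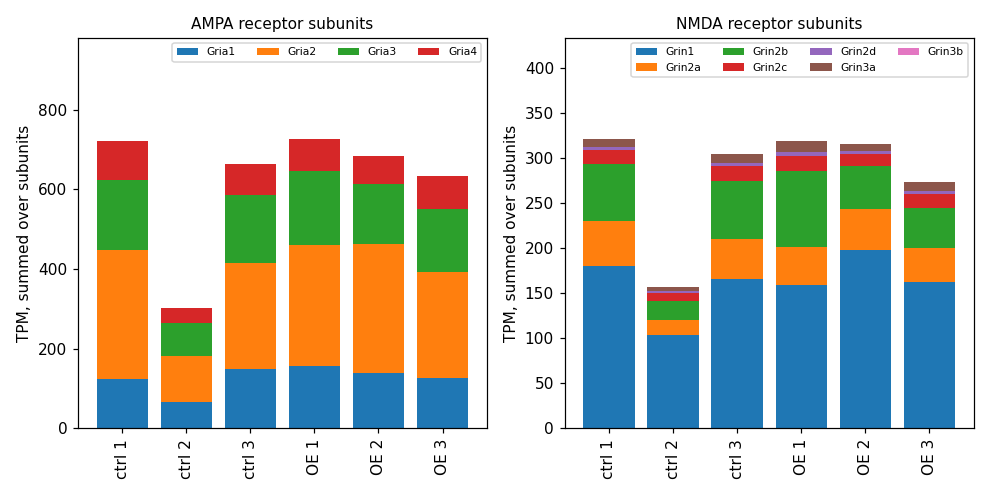
Deposited TPM of the AMPA (left) and NMDA (right) receptor subunits stacked in each library (x axis, 3 controls and 3 overexpression libraries). Control 2, at 303 and 157 TPM in sum, lies below the other 5 libraries, which hold 634 to 726 and 274 to 321 TPM.

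Kainate receptor subunits had log2 fold changes of both signs. Grik5, a subunit with high affinity for kainate and the most abundant of the class per transcript, was at 149, 176 and 162 CPM in controls, compared with 143, 145 and 161 CPM in overexpression, a log2 fold change of -0.12 ± 0.15 (SE), or -0.05 ± 0.10 (SE) without control 2. Grik3, a presynaptic subunit of low affinity, had the highest log2 fold change of all members with all libraries, 0.47 ± 0.25 (SE), and 0.28 ± 0.18 (SE) without control 2, where Grik4 was the highest. The log2 fold change of Grik3 was 0.26 without overexpression library 3. Grik3 was at 81.2, 52.1 and 84.5 CPM in controls, compared with 94.2, 80.7 and 126 CPM in overexpression, and 2 controls were above overexpression library 2. Grik1, prominent in interneurons, was at 15.4, 20.7 and 20.4 CPM in controls, compared with 14.6, 13.5 and 15.5 CPM in overexpression, where library 3 lay just above control 1. Its log2 fold change was -0.37 ± 0.19 (SE), or -0.30 ± 0.16 (SE) without control 2. With the length trend removed it was -0.49 (unadjusted p = 0.031 and adjusted p = 0.75 in edgeR). Grik2, the main pore-forming kainate subunit of principal neurons, had log2 fold changes of 0.10 ± 0.21 and -0.09 ± 0.10 (SE) with and without control 2, and Grik4, the other high-affinity subunit, 0.18 ± 0.26 and 0.33 ± 0.24 (SE). Grid1, a delta subunit that binds cerebellins at synapses and does not open to glutamate, was at 55.5, 38.2 and 51.5 CPM in controls, compared with 47.5, 33.6 and 48.8 CPM in overexpression. Overexpression library 2 was the lowest for Grid1, and without control 2 every overexpression library was below both controls, with a log2 fold change of -0.30 ± 0.17 (SE), beside -0.16 ± 0.22 (SE) with all libraries.

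Among the metabotropic receptors, Grm2, Grm3, Grm4 and Grm8 had log2 fold changes below 0 with and without control 2, and Grm5 and Grm7 were above 0 with it and below 0 without it. Grm2, a presynaptic receptor that curbs glutamate release, was at 27.0, 30.0 and 23.3 CPM in controls, compared with 20.1, 20.1 and 13.9 CPM in overexpression. It was the 1 member of 34 whose groups did not overlap over all libraries (background 11.9% of tested genes, and 6.04% lower). Its log2 fold change was -0.57 ± 0.21 (SE, unadjusted p = 0.026 and adjusted p = 0.82 in edgeR), and without control 2 it was -0.48 ± 0.19 (SE, adjusted p = 0.83). Grm2 shares exon bases with Gm28111, so some of its counts may be reads of that gene. Grm3, the related receptor found on astrocytes as well as neurons, was at 72.9, 51.0 and 86.5 CPM in controls, compared with 62.2, 43.4 and 63.4 CPM in overexpression. Control 2 and overexpression library 2 were lowest for Grm3, and without control 2 the groups did not overlap, with a log2 fold change of -0.50 ± 0.18 (SE, unadjusted p = 0.027 and adjusted p = 0.80 in edgeR), beside -0.32 ± 0.24 (SE) with all libraries. The astrocyte marker sums without control 2 were also lower in each overexpression library, and their part in the value of Grm3 was not tested.

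Of the group III receptors, which act on transmitter release, Grm8 was at 11.7, 9.55 and 11.7 CPM in controls, compared with 8.97, 9.32 and 10.3 CPM in overexpression, below both other controls when control 2 was left out. Grm4 was at 11.6, 12.8 and 13.7 CPM in controls, compared with 8.17, 6.88 and 13.6 CPM in overexpression, where library 3 stood with the controls. Grm7 had log2 fold changes of 0.16 ± 0.25 and -0.08 ± 0.12 (SE) with and without control 2. Grm5, the postsynaptic receptor that couples to phospholipase C, was at 218, 106 and 226 CPM in controls, compared with 255, 170 and 190 CPM in overexpression, with log2 fold changes of 0.16 ± 0.30 and -0.11 ± 0.17 (SE) with and without control 2. Its share of the summed TPM of the 6 listed metabotropic receptors was 32.1%, 22.5% and 32.5% in controls and 38.4%, 33.1% and 34% in overexpression, with no overlap (exact two-sided permutation p = 0.1, the smallest 3 against 3 libraries allow; adjusted p = 0.6 over the 12 shares computed). The mean share was 6.16 percentage points higher in overexpression, or 2.88 without control 2. It was the 1 share of 12 whose groups did not overlap. Without control 2, 5 members had groups that did not overlap, all lower in overexpression: Grin2a, Grid1, Grm2, Grm3 and Grm8 (background 21.9% in either direction and 10.7% lower).

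**Figure D5:**
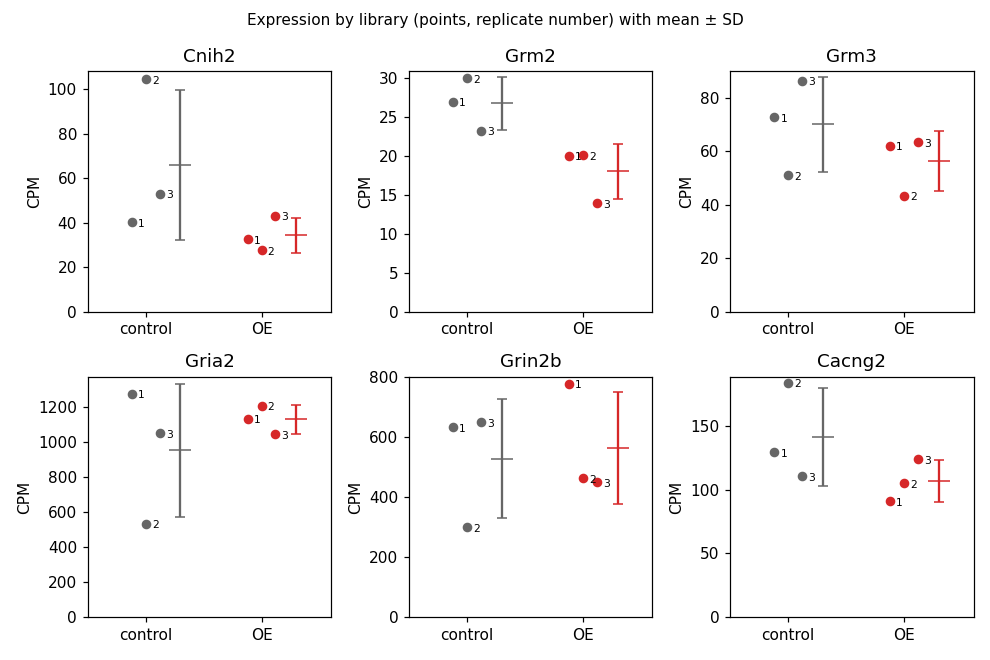
CPM of Cnih2, Grm2, Grm3, Gria2, Grin2b and Cacng2 (y axes from 0) in each library, as points labelled with the replicate number, beside the mean and SD of each group. Control 2 is the highest point for Cnih2, Grm2 and Cacng2 and the lowest control for Grm3, Gria2 and Grin2b, and the groups of Grm2 alone do not overlap.

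All 8 TARP and cornichon genes had log2 fold changes below 0, with and without control 2 and with the length trend removed (background 50.7%, 46.8% and 49.1% of tested genes lower). Their longest transcripts have a median of 2.72 kb, beside 4.85 kb for the 34 members, and control 2 was above the mean of the other controls for 7 of the 8. Over the 20 alternatives run, the sign changed in 6 for Cacng5 and in 3 for Cacng8. The median of the 6 TARPs was -0.25 with all libraries and -0.14 without control 2. Cacng2 (stargazin), the founding TARP, was at 129, 184 and 111 CPM in controls, compared with 91.1, 105 and 124 CPM in overexpression. Without control 2 the groups of Cacng2 overlapped and its log2 fold change was -0.17 ± 0.15 (SE), beside -0.41 ± 0.23 (SE) with all libraries. The longest transcript of Cacng2 is 5.51 kb, above the median of the members, yet control 2 was at 1.53 times the other controls. With the length trend removed its log2 fold change was -0.59 ± 0.27 (SE). Cacng7, a TARP of the type II class with the highest mean TPM among these genes, was at 117, 127 and 120 CPM in controls, compared with 96.1, 109 and 122 CPM in overexpression. Overexpression library 3 lay among the controls for Cacng7, and its log2 fold change was -0.15 ± 0.16 (SE), or -0.12 ± 0.12 (SE) without control 2. Cacng3, Cacng4 and Cacng8 had log2 fold changes of -0.34, -0.45 and -0.15 with all libraries and of -0.21, -0.16 and -0.08 without control 2. With the length trend removed they were -0.15, -0.51 and -0.04. Cacng5 was low, at 3.66 to 6.37 CPM in controls, compared with 3.66 to 6.48 CPM in overexpression. In deposited TPM the TARPs together stood at 310, 272 and 313 TPM in controls and at 290, 253 and 312 TPM in overexpression, groups that overlapped, and on log2(TPM + 1) 2 of the 6 were higher in overexpression.

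Cnih2, the cornichon that slows AMPA receptor closing in forebrain neurons, had the lowest log2 fold change of all members with all 6 libraries. Without control 2 the lowest was that of Grm3, and with the length trend removed that of Grin3b (-0.91). It was at 40.3, 105 and 53.1 CPM in controls, compared with 32.5, 27.6 and 43.1 CPM in overexpression. Overexpression library 3 lay above control 1, so the groups overlapped. The log2 fold change was -0.94 ± 0.35 (SE, unadjusted p = 0.028 and adjusted p = 0.82 in edgeR), and without control 2 it was -0.44 ± 0.21 (SE, unadjusted p = 0.072 and adjusted p = 0.87). With the length trend removed it was -0.64 (unadjusted p = 0.017 and adjusted p = 0.71 in edgeR). Like Grm2, Grin1 (with Grin1os), Cacng2 (with A730060N03Rik) and other members, Cnih2 shares exon bases with another gene. This is its neighbour Yif1a, so some counts of Cnih2 may be reads of that gene. Cnih3, its close relative, was at 38.7, 66.0 and 44.9 CPM in controls, compared with 40.0, 33.2 and 40.6 CPM in overexpression, with log2 fold changes of -0.40 ± 0.23 and -0.14 ± 0.13 (SE) with and without control 2. Cnih2 made up 71.05%, 77.8% and 70.3% of the summed TPM of both in controls and 66.3%, 62.4% and 71.6% in overexpression (exact two-sided permutation p = 0.3), a difference of means of -6.29 percentage points, or -3.91 without control 2.

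The promoters of Grm2, Cnih2 and Cnih3 are shown because Grm2 and Cnih2 were the members with the smallest edgeR p and Cnih3 is the paralog of Cnih2. Each window holds 300 bases around the annotated start of the gene, most of them upstream, 5′ to 3′ on the strand of the gene, from RefSeq on GRCm38.p6. Grm2 is on the minus strand at chr9:106656060-106656359, Cnih2 on the minus strand at chr19:5098472-5098771 and Cnih3 on the plus strand at chr1:181352378-181352677. Capitals mark the letters CTTTGA or, on the other strand, TCAAAG, the core that TCF/LEF factors of the Wnt pathway prefer.
Grm2: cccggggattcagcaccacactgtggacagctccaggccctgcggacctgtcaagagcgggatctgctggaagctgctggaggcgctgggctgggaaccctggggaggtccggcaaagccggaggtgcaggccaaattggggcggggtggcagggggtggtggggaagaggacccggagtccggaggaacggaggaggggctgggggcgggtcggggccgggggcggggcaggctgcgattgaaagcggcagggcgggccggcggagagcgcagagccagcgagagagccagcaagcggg
Cnih2: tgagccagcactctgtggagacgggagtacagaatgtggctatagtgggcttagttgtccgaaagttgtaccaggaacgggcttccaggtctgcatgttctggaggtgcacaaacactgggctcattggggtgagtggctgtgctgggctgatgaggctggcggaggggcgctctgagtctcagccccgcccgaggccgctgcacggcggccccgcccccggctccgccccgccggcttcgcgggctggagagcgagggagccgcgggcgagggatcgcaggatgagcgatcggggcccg
Cnih3: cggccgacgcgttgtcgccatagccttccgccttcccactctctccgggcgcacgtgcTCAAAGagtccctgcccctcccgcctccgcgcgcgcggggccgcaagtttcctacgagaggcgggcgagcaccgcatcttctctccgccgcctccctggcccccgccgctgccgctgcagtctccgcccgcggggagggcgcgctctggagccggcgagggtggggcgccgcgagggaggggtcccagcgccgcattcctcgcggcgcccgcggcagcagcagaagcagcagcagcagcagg
These letters were found in Cnih3 and not in the Grm2 or Cnih2 window. Among the 22 members matched in this promoter table, Cnih3 was the 1 that held them (4.55%), beside 15.5% of the 15214 tested genes with a promoter there. The 3 windows have GC contents of 72.0% (Grm2), 67.3% (Cnih2) and 75.3% (Cnih3).

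The remaining auxiliary subunits were low in control 2. Neto1, which joins kainate and NMDA receptors, was at 132, 78.7 and 135 CPM in controls, compared with 127, 122 and 167 CPM in overexpression. Overexpression library 3 was the highest for Neto1 and control 2 the lowest, and the log2 fold change was 0.27 ± 0.24 (SE), or 0.06 ± 0.14 (SE) without control 2. Neto2 had log2 fold changes of 0.17 ± 0.24 and -0.02 ± 0.17 (SE). Shisa9 was at 39.3, 25.6 and 47.6 CPM in controls, compared with 54.1, 32.5 and 51.9 CPM in overexpression, with overlap, and stood at 0.30 ± 0.28 and 0.09 ± 0.23 (log2 fold change ± SE). These 3 genes shared the low value in control 2 with the AMPA subunits, at 0.59 to 0.64 times the other controls.

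Other genes of the glutamate synapse gave 0 calls in edgeR as well, over all 6 libraries and without control 2. Of 23 scaffold and linker genes, 11 were higher and 12 lower (median -0.01 on the log2 scale). Without control 2, 21 were lower (median -0.16, background 46.8% lower), and 3 of these had an unadjusted p under 0.05 (background 5.87%). With all libraries 1 gene did (background 4.65%), Lin7b, a small PDZ linker that was at 17.3, 46.4 and 13.4 CPM in controls, compared with 10.6, 8.80 and 13.4 CPM in overexpression. Control 2 was far above all others for Lin7b, whose log2 fold change was -1.23 ± 0.45 (SE), or -0.49 ± 0.21 (SE) without it. Dlgap3, a scaffold that joins Dlg4 to Shank proteins, was at 180, 173 and 188 CPM in controls, compared with 134, 126 and 168 CPM in overexpression, with no overlap (background 11.9%). It had log2 fold changes of -0.34 ± 0.17 and -0.37 ± 0.13 (SE) with and without control 2, and edgeR adjusted p of 0.82 and 0.80.

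Of 20 other biogenesis and auxiliary genes, 8 were higher and 12 lower, or 10 and 10 without control 2. In either fit 1 had an unadjusted p under 0.05 (background 4.65% with all libraries and 5.87% without control 2). This was Nptx1, a secreted pentraxin that clusters AMPA receptors, at 279, 240 and 281 CPM in controls, compared with 374, 410 and 386 CPM in overexpression. Its groups did not overlap (background 11.9% of tested genes, or 21.9% without control 2). The log2 fold change of Nptx1 was 0.55 ± 0.15 (SE) with all libraries and 0.48 ± 0.08 (SE) without control 2, with edgeR adjusted p of 0.82 and 0.50. Olfm2, an olfactomedin found with AMPA receptors, had a log2 fold change of -0.36 ± 0.17 (SE), or -0.31 ± 0.14 (SE) without control 2. Of 19 genes of glutamate supply and clearance, 10 were higher and 9 lower (median 0.01). None had an unadjusted p under 0.05 in edgeR with all libraries (background 4.65%), and 2 did without control 2, both lower (background 5.87%). The smallest p with all libraries were those of Slc38a2, a glutamine transporter, and Slc17a8, a vesicular glutamate transporter. Slc38a2 had log2 fold changes of 0.47 ± 0.23 and 0.35 ± 0.21 (SE) with and without control 2. Slc17a8 had -0.52 ± 0.29 and -0.71 ± 0.21 (SE). Without control 2 its groups did not overlap (background 21.9%), with unadjusted p = 0.012 and adjusted p = 0.73 in edgeR.

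Of 21 kinase, phosphatase and calcium genes downstream of the receptors, 8 were higher and 13 lower (median -0.10), or 6 and 15 without control 2 (median -0.13). An unadjusted p under 0.05 was reached by 1 of them with all libraries (background 4.65%) and by 5 without control 2 (background 5.87%), all lower. Their summed level was 17595 to 18551 CPM in controls, compared with 16507 to 17036 CPM in overexpression, with no overlap. Nrgn, a calmodulin-binding protein of dendritic spines, was at 803, 1998 and 695 CPM in controls, compared with 512, 579 and 706 CPM in overexpression, so that overexpression library 3 lay above control 3. Its log2 fold change was -0.96 ± 0.39 (SE) with all libraries and -0.32 ± 0.14 (SE) without control 2. Calm3, a calmodulin gene, was at 1032, 1312 and 1049 CPM in controls, compared with 827, 860 and 932 CPM in overexpression, groups that did not overlap (background 11.9%). It had a log2 fold change of -0.37 ± 0.16 (SE), or -0.25 ± 0.08 (SE) without control 2.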

How the data were processed

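RNA was extracted with Trizol and made into strand-specific TruSeq libraries, per the labels' protocols. Cuffnorm, STAR 2.5.3a, DESeq 1.16.1, FastQC 0.11.5 and the build mm10 are named in the submitters' processing notes. Not given in the sources used here is what each tool did, nor the annotation or strand setting of the counting. Deposited counts are whole numbers per gene with no normalization, and the deposited TPM of the authors sum to the same total in each library.

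Groups came from sample titles, and columns were matched through library names. Genes were kept by filterByExpr (minimum count 10) and tested with edgeR 4.0.16 quasi-likelihood (TMM, group as the term, Benjamini-Hochberg over all genes, threshold 0.05) in R 4.3.3. DESeq2 1.42.0 and limma 3.58.1 were alternatives, as were other scalings and filters, a length trend (counts over TPM, lowess span 0.3) removed, and each library left out. The test was tried on simulated counts. Subunit shares used deposited TPM and exact permutation tests over libraries. Coordinates and lengths are from GENCODE M21 (mm10).

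The members, gene lists, subunit shares and the omission of control 2 were chosen with earlier results of these data known. All members were named; values were given in full for members with an unadjusted p under 0.05, groups that did not overlap, or the highest TPM of a class, and for others where a class is described. From each pathway list the 2 genes with the smallest p were named.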

Additional observations from a re-analysis of the deposited data

How the results depend on the processing

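No member passed an adjusted p of 0.05 under any of the 20 alternatives run. Over all genes, DESeq2 called 64, or 132 with control 2 left out (a combination added after seeing the data, as was the length correction without control 2), whereas edgeR and limma called 0; the cause was not tested. An unadjusted p under 0.05 was reached by 3 members with the length trend removed and by 3 in DESeq2 with control 2 left out. It was reached by 0 members on log2(TPM + 1), 0 on log2(TPM + 0.1) and 1 on log2(TPM + 1) with a mean TPM of at least 0.5, and by 1 to 2 with single libraries left out. The share of all tested genes under this threshold is given above for edgeR with all libraries and without control 2. For the other settings, the replicate block below included, it is not given, so their counts cannot be read against a background. The median log2 fold change of the members was 0.233, 0.236 and 0.238 on these TPM scales, where the median of all genes was 0.06, 0.17 and 0.18, and -0.11 to 0.09 with single libraries left out. With the replicate number as a block, edgeR called 0 genes, 2 members had an unadjusted p under 0.05 and the median of the members was 0.02. The numbers were not taken as pairs, because they are not said to pair animals. Deviations of same-numbered libraries from their group means correlated at 0.06, -0.02 and -0.01. With 3 libraries per group, and control 2 entering the mean of all controls, these values cannot show whether pairs exist. The SE of the log2 fold changes (0.15 to 0.59, median 0.23, or 0.16 without control 2) limits what could be detected, as do the low counts of Grin3b.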
